A study of Mus musculus with 20 samples.

Results

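The 9 genes described here encode enzymes of triglyceride synthesis: Gpam, Agpat2, Agpat3, the lipins Lpin1, Lpin2 and Lpin3, Dgat1, Dgat2 and Mogat1. They were chosen by gene symbol, as 9 of the 19505 genes with a symbol on the array, and each had 1 probe set. Liver RNA of 20 mice was measured with 1 Affymetrix array per liver, and each of 4 groups had 5 mice, which the labels call biological replicates. Fed WT and fed Mcl1(L-/-) mice ate freely, and fasted WT and fasted Mcl1(L-/-) mice spent 48 h without food, alone in wire-bottom cages. All mice had water. The caging of fed mice is not described, so the fast and the individual housing cannot be told apart. In Mcl1(L-/-) mice the floxed alleles of Mcl1, an anti-apoptotic gene of the BCL2 family, were deleted in the liver by AAV-LP1-Cre, an adeno-associated virus in which a liver promoter drives Cre recombinase. The labels carry the same sentence on Mcl1(F/F) mice and AAV-LP1-Cre for every sample, and do not say what the WT mice received, so the deletion and any effect of the vector cannot be told apart here. The labels used here name no strain, age or sex.

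In the liver most triglyceride is made by the glycerol 3-phosphate pathway. Acyltransferases add a first and then another fatty acid to glycerol 3-phosphate, which gives phosphatidic acid, a phosphatidic acid phosphatase (a lipin) removes the phosphate, and a diacylglycerol acyltransferase adds the last fatty acid. A side route starts from monoacylglycerol. Fatty acids released from adipose tissue reach the liver during a fast, where they are oxidised, stored as triglyceride or secreted in lipoproteins. Lipins also act in the nucleus as coregulators of genes of fatty acid oxidation.

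The starts of Lpin1, Lpin2 and Agpat3 are shown because these 3 members were higher after the fast in both genotypes. Each sequence is the 250 bases before a transcription start in RefSeq (GRCm38.p6), read 5′ to 3′ on the gene's strand. Capitals mark matches to searched motifs.
Lpin1, chr12:16610967-16611216, minus strand: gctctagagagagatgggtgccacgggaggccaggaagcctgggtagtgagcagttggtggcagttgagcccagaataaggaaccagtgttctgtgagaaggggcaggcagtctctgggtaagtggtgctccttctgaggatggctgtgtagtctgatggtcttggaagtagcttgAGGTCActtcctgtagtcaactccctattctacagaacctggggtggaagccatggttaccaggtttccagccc
Lpin2, chr17:71183282-71183531, plus strand: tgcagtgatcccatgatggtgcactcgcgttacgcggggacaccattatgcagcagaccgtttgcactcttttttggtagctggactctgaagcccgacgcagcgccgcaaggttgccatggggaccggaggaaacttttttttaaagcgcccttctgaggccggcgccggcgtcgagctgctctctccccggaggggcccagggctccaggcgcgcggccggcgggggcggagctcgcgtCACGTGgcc
Agpat3, chr10:78351701-78351950, minus strand: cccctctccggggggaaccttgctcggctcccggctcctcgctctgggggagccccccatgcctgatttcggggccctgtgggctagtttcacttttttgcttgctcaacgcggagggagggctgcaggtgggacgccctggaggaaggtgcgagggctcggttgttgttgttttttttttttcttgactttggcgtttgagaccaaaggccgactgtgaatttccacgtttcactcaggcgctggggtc
Both strands were searched for AGGTCA, a hexamer bound by nuclear receptors, for the E-box CACGTG, for the cAMP response element TGACGTCA and for a palindromic glucocorticoid response element and a sterol response element by single consensus sequences. No window shown held more than 1 match. Lpin1 held AGGTCA, beginning 74 bases before the start, as did 14% of the 32851 RefSeq windows of this length. Lpin2 held the E-box 9 bases before its first listed start, as did 6.02% of windows, and its other 2 listed starts held no match. Agpat3 held no match. In all 7 members had 11 such windows, and the only further match was AGGTCA at 196 bases before the second listed start of Gpam. The shares of all windows were 1.55% for the cAMP response element, 0.00913% for the glucocorticoid element and 0.0731% for the sterol element. These matches describe letters in a window, and which start the livers used was not measured. No window for Dgat1 or Dgat2 was used here.

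The array values are log2 signals on an RMA scale, so a difference of 1 is a doubling, and levels of different genes are not compared. Mcl1, the deleted gene, was lower in every Mcl1(L-/-) liver than in every WT liver. It averaged 7.43 ± 0.15 (SD, n = 5) with food and 7.28 ± 0.09 after the fast in WT, and 6.09 ± 0.16 and 6.14 ± 0.25 in Mcl1(L-/-) livers (log2 -1.34 fed and -1.14 fasted, limma adjusted p = 5.07e-07 and 4.47e-06). The hepatocyte marker Alb lay between 12.38 and 12.56 in all livers, and the mean over 9 hepatocyte markers between 11.66 and 11.77. Of 10 Kupffer cell markers 4 fell with fasting in WT and 2 in Mcl1(L-/-) livers (4 without fasted Mcl1(L-/-) replicate 4), and 3 were higher in Mcl1(L-/-) than in WT livers after the fast (1 to 5 with single arrays left out). Their mean ranged over 5.33 to 5.80 with food and 4.65 to 4.98 after the fast in WT livers, and over 5.45 to 5.77 and 5.06 to 5.78 in Mcl1(L-/-) livers. Adipocytes also express several of the 9 genes. Their marker Adipoq averaged 2.12 to 2.28 in the 4 groups, below the 25th percentile of all probe sets (2.43), and of 9 adipocyte markers 0 were higher and 1, Thrsp, was lower with fasting in WT, and 1, Fabp4, was higher and 1, Thrsp, lower in Mcl1(L-/-) livers. The mean over these 9 markers spanned 3.91 to 4.0 with food and 3.52 to 3.89 after the fast in WT livers, and 3.79 to 4.01 and 3.54 to 3.99 in Mcl1(L-/-) livers. This mean includes Thrsp, which averaged 10.32 fed and 7.57 fasted in WT, and 10.20 and 6.81 in Mcl1(L-/-) livers. Fabp4 averaged 4.81 and 5.42 in WT, and 4.23 and 6.88 in Mcl1(L-/-) livers. The mean therefore does not show the direction of the markers other than Thrsp. With fasting, in WT and in Mcl1(L-/-) livers, calls among the other marker lists numbered 0 and 2 of 9 hepatocyte, 1 and 1 of 9 myeloid, 3 and 2 of 10 sinusoidal endothelial, 1 and 4 of 9 stellate, 0 and 1 of 9 cholangiocyte and 0 and 0 of 8 lymphocyte markers. In WT, single arrays left out gave 1 hepatocyte call (any of 7 arrays), 2 stellate calls (fed WT replicate 2) and 1 cholangiocyte call (fed WT replicate 1 or 4). In Mcl1(L-/-) livers they gave 0 myeloid calls (fed Mcl1(L-/-) replicate 3 or fasted Mcl1(L-/-) replicate 2), 2 cholangiocyte calls (fed WT replicate 1 or 2) and 1 lymphocyte call (fed Mcl1(L-/-) replicate 4). For the deletion in fasted mice 2 stellate markers, 1 myeloid and 1 adipocyte marker were higher in Mcl1(L-/-) livers, and 0 hepatocyte, sinusoidal, cholangiocyte or lymphocyte markers were called. With single arrays left out these counts ranged over 1 to 3 for stellate, 1 to 2 for myeloid, 0 to 1 for adipocyte and 0 to 2 for sinusoidal markers, and stayed at 0 for the other 3 lists. The part of other cell types in the results below was not tested. In these bulk samples fewer cells of a type and less RNA per cell cannot be told apart.

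**Figure D1:**
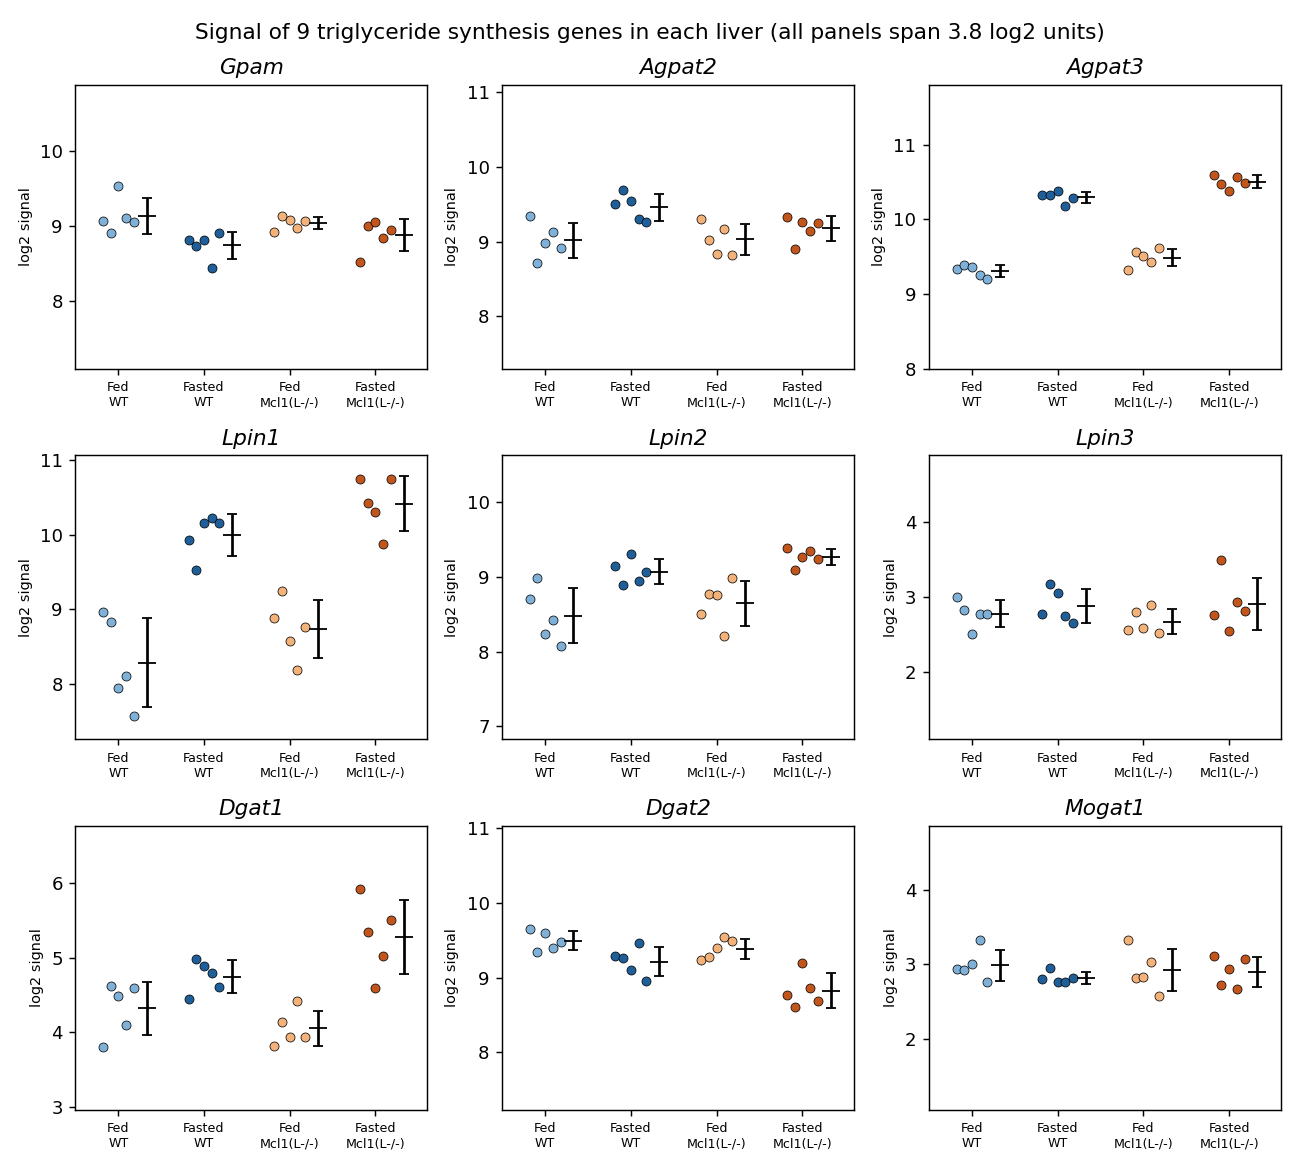
Log2 signal of the 9 genes (vertical axes, each spanning 3.8 log2 units) in the 4 groups of 5 livers (horizontal axis). Points are livers, and the bar beside them is the mean ± SD. Fed and fasted livers of each genotype do not overlap for Lpin1 and Agpat3, nor in WT for Gpam, nor in Mcl1(L-/-) livers for Lpin2, Dgat1 and Dgat2.

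With fasting, transcripts of Agpat3, Lpin1 and Lpin2 rose in both genotypes. Agpat2 rose in WT livers. Dgat1 rose and Dgat2 fell in Mcl1(L-/-) livers. In WT both differed in the same directions without a call (log2 0.42 and -0.28, limma unadjusted p = 0.0416 and 0.0252). An unadjusted p under 0.05 was reached by 7 of 9 members for fasting in WT and by 5 in Mcl1(L-/-) livers. Deletion of Mcl1 by itself gave no call among the 9 genes, with or without food, and whether the fasting response differed between genotypes was not shown for any of them. A call is an adjusted p under 0.05 in limma with the Benjamini-Hochberg adjustment over all 22206 probe sets, and the standard errors (SE) come from the same model, with n = 5 mice a group. For fasting in WT, 4 of 9 members were called, all higher, where 6.79% of all probe sets were called (3.1% higher and 3.68% lower). For fasting in Mcl1(L-/-) livers, 5 of 9 were called, 4 higher and 1 lower, where 14.4% of all probe sets were called (8.2% higher and 6.25% lower). Those shares include dim probe sets. Gpam, Agpat2, Agpat3, Lpin1, Lpin2 and Dgat2 lay at the 97.1st to 98.7th percentile of mean signal. Dgat1 lay at the 66th, and Lpin3 and Mogat1 below the median. A fit of only probe sets at or above the median signal called 1659 in WT and 3331 in Mcl1(L-/-) livers, against 1507 and 3208 over all. The share called was thus higher among bright probe sets, and the members were not matched for signal. The median difference over the 9 genes was 0.42 in WT and 0.24 in Mcl1(L-/-) livers, and over all probe sets 0.0149 and -0.0015 (the median sizes without sign were 0.42 and 0.56 for the genes and 0.12 and 0.14 for all probe sets). Fed and fasted arrays did not overlap for 3 members in WT and 5 in Mcl1(L-/-) livers, against 7.36% and 10.2% of all probe sets.

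**Figure D2:**
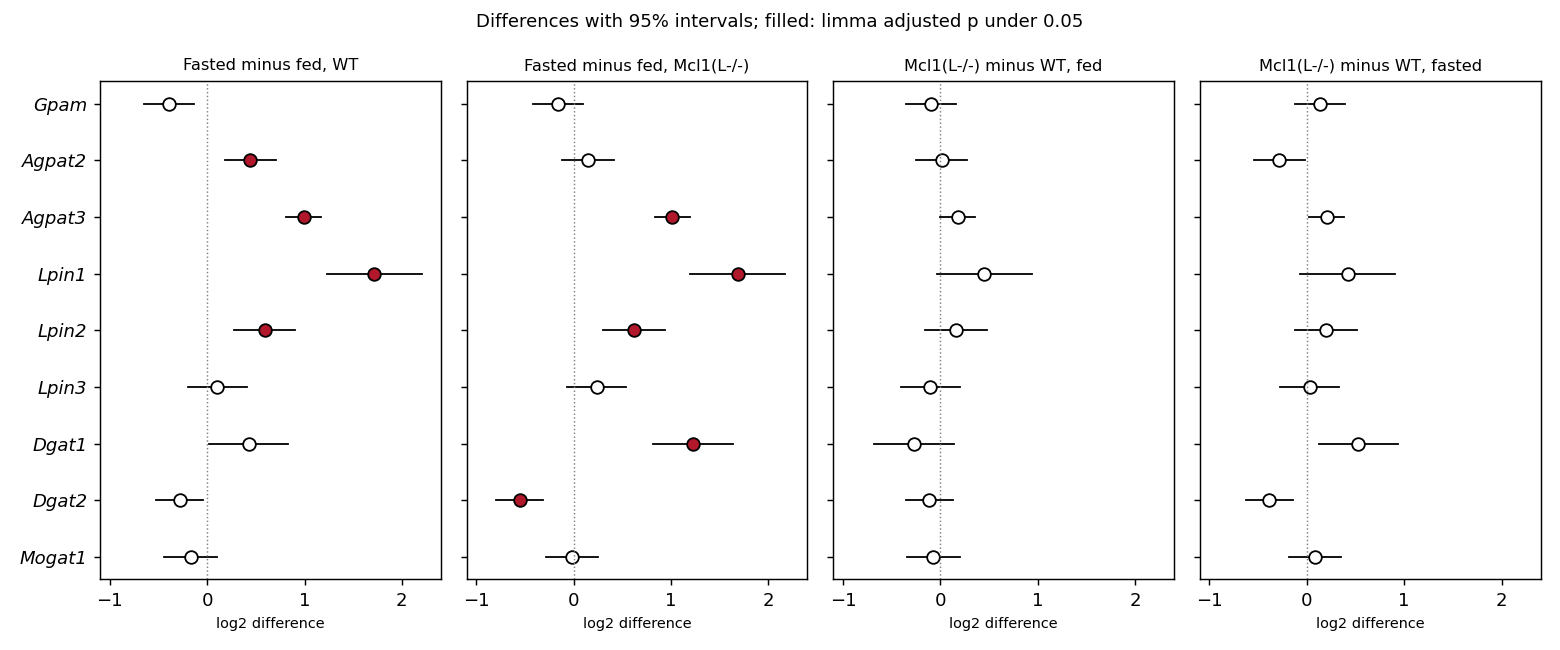
Log2 differences of the 9 genes (horizontal axis) in the 4 pairwise comparisons, with 95% intervals from limma. Filled points have an adjusted p under 0.05. Filled points lie in both fasting panels and in neither deletion panel.

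Gpam encodes the mitochondrial glycerol 3-phosphate acyltransferase that commits fatty acids to glycerolipid synthesis. Its log2 signal in fed WT replicates 1 to 5 was 9.07, 8.91, 9.54, 9.11 and 9.05, and in fasted WT replicates 8.81, 8.74, 8.82, 8.44 and 8.91. Every fasted WT liver lay below every fed WT liver, though the highest of the one and the lowest of the other print as the same 8.91. The difference was -0.39 (SE 0.12, 95% interval -0.65 to -0.14) with an adjusted p of 0.0562, just outside the threshold, and it lay inside it in 5 of 29 alternative analyses (adjusted p from 0.022 to 0.770 over all of them). Mcl1(L-/-) livers measured 8.92, 9.14, 9.08, 8.98 and 9.07 with food and 8.52, 9.0, 9.06, 8.84 and 8.95 after the fast. These groups overlapped, with a difference of -0.16 (interval -0.42 to 0.09, adjusted p = 0.487). From highest to lowest the group means ran fed WT (9.14), fed Mcl1(L-/-) (9.04), fasted Mcl1(L-/-) (8.88) and fasted WT (8.74), and each step between neighbours was smaller than the larger SD of the pair.

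Agpat2 and Agpat3 encode 1-acylglycerol-3-phosphate acyltransferases, which turn lysophosphatidic acid into phosphatidic acid. Loss of human AGPAT2 causes a congenital lipodystrophy. The Agpat3 values in fed WT livers were 9.34, 9.39, 9.36, 9.25 and 9.20, and in fasted WT livers 10.32, 10.32, 10.38, 10.18 and 10.29. Fed Mcl1(L-/-) livers gave 9.32, 9.56, 9.51, 9.43 and 9.62, and fasted Mcl1(L-/-) livers 10.60, 10.48, 10.38, 10.57 and 10.49. All 10 fasted livers therefore stood above all 10 fed livers, and the spread within a group was small (SD 0.07 to 0.12). The within-group SD of Agpat3 was at the 0.694th percentile of all probe sets. Agpat3 rose 1.99-fold in WT (log2 0.99, SE 0.09, adjusted p = 6.59e-08) and 2.02-fold in Mcl1(L-/-) livers (log2 1.01, SE 0.09, adjusted p = 1.77e-08). The interaction, which is the fasting difference in Mcl1(L-/-) minus that in WT, was 0.02 with a 95% interval of -0.23 to 0.28 (adjusted p = 0.973). The order of the group means was fasted Mcl1(L-/-) (10.50), fasted WT (10.30), fed Mcl1(L-/-) (9.49) and fed WT (9.31). Within each feeding state the Mcl1(L-/-) mean was higher by 0.18 to 0.20, which passed no adjusted threshold (adjusted p = 0.774 fed and 0.198 fasted), and the livers of the genotypes overlapped.

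The log2 signals of Agpat2 were 9.35, 8.71, 8.99, 9.13 and 8.92 in fed WT livers and 9.50, 9.69, 9.54, 9.30 and 9.27 in fasted WT livers. Fed WT replicate 1 lay above the 2 lowest fasted livers, so the groups overlapped. Agpat2 rose 1.36-fold in WT (log2 0.44, SE 0.13, adjusted p = 0.0352). This call did not survive the removal of replicate 2, 3 or 5 of the fed or replicate 1, 2 or 3 of the fasted WT livers (adjusted p from 0.0658 to 0.118), with only the WT arrays in the fit (adjusted p = 0.0532) and against a null bound of 0.2 (adjusted p = 0.520). In Mcl1(L-/-) livers the values were 9.31, 9.03, 8.84, 9.17 and 8.82 with food and 9.33, 8.91, 9.26, 9.15 and 9.25 after the fast. There the difference of 0.15 (interval -0.12 to 0.41) had an adjusted p of 0.572. The interaction of -0.30 had an interval of -0.67 to 0.08 (adjusted p = 0.566), so the data do not show whether the genotypes differed. Fasted WT had the highest mean (9.46), followed by fasted Mcl1(L-/-) (9.18), and the 3 lower groups (9.18, 9.03 and 9.02) lay within each other's SDs of 0.16 to 0.24.

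The lipins are magnesium-dependent phosphatidic acid phosphatases, and Lpin1, first known from the fatty liver dystrophy (fld) mouse, also serves as a coactivator with PPARα and PGC-1α. Lpin1 had the largest difference of the 9 genes in both genotypes. Fed WT livers had log2 signals of 8.96, 8.83, 7.94, 8.11 and 7.57 and fasted WT livers of 9.93, 9.53, 10.15, 10.22 and 10.16. Fed Mcl1(L-/-) livers had 8.89, 9.24, 8.58, 8.19 and 8.76, and fasted Mcl1(L-/-) livers 10.75, 10.42, 10.30, 9.87 and 10.75. No fed liver of either genotype reached any fasted liver. Lpin1 rose 3.28-fold in WT (log2 1.71, SE 0.24, adjusted p = 3.19e-05) and 3.21-fold in Mcl1(L-/-) livers (log2 1.68, SE 0.24, adjusted p = 1.69e-05). The interaction was -0.03, with an interval of -0.72 to 0.66 (adjusted p = 0.988). Lpin1 also varied among livers of 1 group more than most genes (within-group SD 0.42, at the 97.1st percentile of probe sets), and most in fed WT livers, where the SD was 0.60. By mean the order was fasted Mcl1(L-/-) (10.42), fasted WT (9.997), fed Mcl1(L-/-) (8.73) and fed WT (8.28). The Mcl1(L-/-) mean exceeded WT by 0.45 with food and by 0.42 in the fast, with intervals of -0.04 to 0.94 and -0.07 to 0.91 (adjusted p = 0.821 and 0.367), and the livers of the genotypes overlapped in both feeding states.

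Lpin2, the lipin whose human counterpart is mutated in Majeed syndrome, gave 8.70, 8.98, 8.23, 8.42 and 8.07 in fed WT and 9.14, 8.89, 9.30, 8.95 and 9.07 in fasted WT livers. Fed WT replicate 2 reached into the range of the fasted livers. In fed Mcl1(L-/-) livers Lpin2 measured 8.50, 8.77, 8.75, 8.21 and 8.99, and in fasted ones 9.38, 9.09, 9.27, 9.34 and 9.24, with no overlap. Lpin2 rose 1.51-fold in WT (log2 0.59, SE 0.15, adjusted p = 0.0184) and 1.54-fold in Mcl1(L-/-) livers (log2 0.62, SE 0.15, adjusted p = 0.0063). Removing replicate 3 or 5 of the fed or replicate 3 of the fasted WT livers ended the WT call (adjusted p from 0.0603 to 0.0672), and both calls were lost against a null bound of 0.2 (adjusted p = 0.209 and 0.0756). The interaction was 0.03 (interval -0.42 to 0.48, adjusted p = 0.984). The order of the means was that of Lpin1: fasted Mcl1(L-/-) (9.26), fasted WT (9.07), fed Mcl1(L-/-) (8.65) and fed WT (8.48), and neighbours of the same feeding state overlapped (adjusted p = 0.564 fasted and 0.937 fed).

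The fed WT livers with the 2 highest Lpin1 values, replicates 1 and 2, also had the 2 highest Lpin2 values. Replicate 5 was the lowest of its group for both lipins. Among fed Mcl1(L-/-) livers replicate 4 was lowest for both. Fasted WT replicate 2 was also the lowest of its group for both (9.53 and 8.89). Some other livers differed in rank between the lipins. Fasted Mcl1(L-/-) replicate 4 had the lowest Lpin1 of its group (9.87), while its Lpin2 (9.34) was below only that of replicate 1. Fed Mcl1(L-/-) replicate 1 was below only replicate 2 for Lpin1 (8.89) but above only replicate 4 for Lpin2 (8.50). Of all genes with a symbol other than predicted models, Lpin1 was the one whose pattern over the 20 arrays was most like that of Lpin2 (Pearson r = 0.898 over 20 arrays, a description that holds the fasting difference they share). The next were Slc25a22, a mitochondrial glutamate carrier (r = 0.881), and Tat, tyrosine aminotransferase (r = 0.878).

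**Figure D3:**
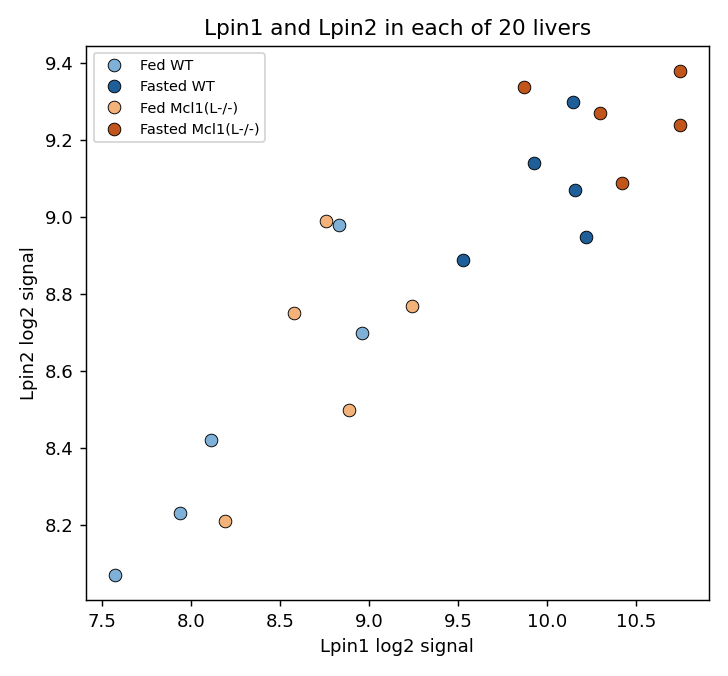
Log2 signal of Lpin1 (horizontal axis) against that of Lpin2 (vertical axis) in each of the 20 livers, coloured by group. Fed livers of both genotypes lie below 9.25 for Lpin1 and fasted livers above 9.50, and within the fed WT group replicates low for Lpin1 are low for Lpin2.

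Lpin3, the third lipin, had no call. Its probe set was dim, and the group means of 2.67 to 2.91 lay below the median of all probe sets (3.41). The lowest, median and highest Lpin3 values were 2.50, 2.77 and 3.0 with food and 2.65, 2.77 and 3.17 after the fast in WT livers, and 2.52, 2.58 and 2.89, then 2.55, 2.81 and 3.49, in Mcl1(L-/-) livers. All 4 groups overlapped. The fasting difference was 0.10 (interval -0.20 to 0.41, adjusted p = 0.814) in WT and 0.24 (interval -0.07 to 0.54, adjusted p = 0.367) in Mcl1(L-/-) livers.

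Dgat1 and Dgat2 encode unrelated proteins that catalyse the same last step, the acylation of diacylglycerol. DGAT2 is linked to newly made fatty acids and DGAT1 to the re-esterification of fatty acids from outside or from lipolysis. Dgat1 values in fed WT livers were 3.81, 4.62, 4.49, 4.10 and 4.60 and in fasted WT livers 4.45, 4.99, 4.89, 4.80 and 4.61. Those groups overlapped. In fed Mcl1(L-/-) livers Dgat1 gave 3.82, 4.14, 3.94, 4.42 and 3.94, and in fasted ones 5.92, 5.34, 4.60, 5.02 and 5.51. Every fasted Mcl1(L-/-) liver was above every fed one, and replicate 3 was the lowest of the fasted ones. Dgat1 rose 2.34-fold with fasting in Mcl1(L-/-) livers (log2 1.22, SE 0.20, interval 0.82 to 1.63, adjusted p = 8.92e-05). In WT the difference was 0.42 (SE 0.20, interval 0.02 to 0.83, adjusted p = 0.260). The test of the difference between these responses gave an interaction of 0.80 (SE 0.28, interval 0.22 to 1.38, unadjusted p = 0.00864, limma adjusted p = 0.241), so a stronger response in Mcl1(L-/-) livers was not established after adjustment over all probe sets. Fasted Mcl1(L-/-) livers also varied more (SD 0.50, against 0.22 to 0.36 elsewhere).

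For Dgat2, fed WT livers measured 9.65, 9.34, 9.60, 9.40 and 9.48 and fasted WT livers 9.29, 9.26, 9.10, 9.46 and 8.96. Fed Mcl1(L-/-) livers measured 9.23, 9.27, 9.40, 9.54 and 9.49, and fasted ones 8.77, 8.61, 9.20, 8.86 and 8.69. The WT groups overlapped and the Mcl1(L-/-) groups did not, with replicate 3 the highest of the fasted ones and 0.03 below the lowest fed one. Dgat2 fell 1.47-fold in Mcl1(L-/-) livers (log2 -0.56, SE 0.12, interval -0.80 to -0.31, adjusted p = 0.00157). The WT difference was -0.28 (SE 0.12, interval -0.53 to -0.04, adjusted p = 0.192), and the interaction was -0.28 (interval -0.62 to 0.07, adjusted p = 0.563). The means of Dgat1 ran fasted Mcl1(L-/-) (5.28), fasted WT (4.75), fed WT (4.32) and fed Mcl1(L-/-) (4.05), and those of Dgat2 fed WT (9.49), fed Mcl1(L-/-) (9.38), fasted WT (9.21) and fasted Mcl1(L-/-) (8.83). Livers of the genotypes overlapped for both genes in both feeding states.

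**Figure D4:**
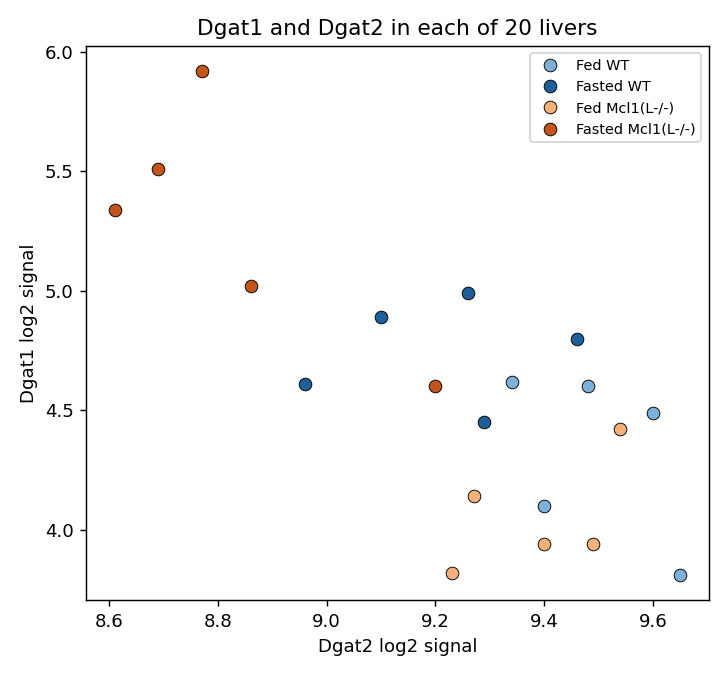
Log2 signal of Dgat2 (horizontal axis) against that of Dgat1 (vertical axis) in each of the 20 livers, coloured by group. Of the 5 fasted Mcl1(L-/-) livers, 4 have Dgat1 between 5.02 and 5.92 and Dgat2 between 8.61 and 8.86, and replicate 3 lies among the WT livers at 4.60 and 9.20.

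Mogat1 encodes a monoacylglycerol acyltransferase of the side route and is a relative of Dgat2. The probe set was dim, with group means of 2.82 to 2.99, below the median of all probe sets. The lowest, median and highest values were 2.77, 2.94 and 3.33 with food and 2.76, 2.81 and 2.95 after the fast in WT livers, and 2.58, 2.83 and 3.33, then 2.67, 2.94 and 3.11, in Mcl1(L-/-) livers. All groups overlapped, with SDs of 0.08 in fasted WT and 0.20 to 0.28 in the other groups. Fasting gave -0.17 (interval -0.44 to 0.10, adjusted p = 0.576) in WT and -0.02 (interval -0.29 to 0.25, adjusted p = 0.969) in Mcl1(L-/-) livers.

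The remaining question is what Mcl1 deletion did to these genes within a feeding state. In fed mice limma called 0 of the 9 members, where 0.036% of all probe sets were called (0.0225% higher and 0.0135% lower), and 1 member, Agpat3 (log2 0.18, interval 0.00 to 0.36), had an unadjusted p under 0.05. In fasted mice 0 of 9 were called, where 4.99% of all probe sets were called (3.32% higher and 1.67% lower). Of the 9, 4 reached an unadjusted p under 0.05, namely Dgat2 (log2 -0.39, SE 0.12, adjusted p = 0.0589), Dgat1 (log2 0.53, SE 0.20, adjusted p = 0.132), Agpat3 (log2 0.20, adjusted p = 0.198) and Agpat2 (log2 -0.28, adjusted p = 0.234). The median difference over the 9 genes was -0.07 with food and 0.13 in the fast, against -0.0017 and -0.0171 over all probe sets. Both Dgat genes passed the threshold without 1 liver, fasted Mcl1(L-/-) replicate 3. Dgat2 was then lower (log2 -0.48, adjusted p = 0.00958) and Dgat1 higher (log2 0.70, adjusted p = 0.0195) in fasted Mcl1(L-/-) than in fasted WT livers, and the calls over all probe sets went from 1109 to 1707. The Dgat1 interaction was then 0.97 (adjusted p = 0.0526). Leaving out fasted WT replicate 5 also brought Dgat2 under the threshold (log2 -0.45, adjusted p = 0.0376). With all 20 arrays Dgat2 passed it after quantile normalisation (adjusted p = 0.0384), with trend and robust moderation (adjusted p = 0.0241) and with bright probe sets only (adjusted p = 0.037). No member had arrays that did not overlap between the genotypes, in either feeding state (1.57% and 3.9% of all probe sets had, fed and fasted). For the interaction limma called 0 of the 9 members, where 0.135% of all probe sets were called (0.0811% higher and 0.054% lower), and 1, Dgat1, had an unadjusted p under 0.05. The fasting and deletion comparisons share arrays, so their values are not independent of each other.

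Genes whose pattern over the 20 arrays was most like that of a called member were taken as a description. For Agpat3 these were Hsd17b10, a mitochondrial dehydrogenase gene (Pearson r = 0.982), Cpt1a, the carnitine palmitoyltransferase of the mitochondrial outer membrane (r = 0.981), and Crat, carnitine acetyltransferase (r = 0.974). Lpin1 was most like Tat (r = 0.949), the transcription factor gene Klf9 (r = 0.947) and the cell cycle inhibitor gene Cdkn1a (r = 0.942). Dgat1 was most like Smap2 (r = 0.924), Kcmf1 (r = 0.915) and Dnajc21 (r = 0.908), and Dgat2 most like Dhrs11 (r = 0.941), Galm (r = 0.926) and Slc25a23 (r = 0.925). Agpat2 was most like Bhmt2 (r = 0.854), Pxmp2 (r = 0.840) and Reep6 (r = 0.839). All points share the fed and fasted groups, so any gene that follows fasting scores high.

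Around the 9 enzymes, 95 other genes of glycerolipid metabolism and its control were measured. Among 16 genes of glycerol 3-phosphate supply and further acyltransferases, 1 rose with fasting in WT (2 without fasted WT replicate 4), and 2 rose and 3 fell in Mcl1(L-/-) livers. Gpat3, an acyltransferase of the endoplasmic reticulum for the same first step as Gpam, rose in both (1.54-fold in WT, adjusted p = 0.00366, and 1.58-fold in Mcl1(L-/-), adjusted p = 0.000981). Agpat5 rose 1.58-fold in Mcl1(L-/-) livers, where Agpat1 fell 1.31-fold and the glycerol channel genes Aqp7 and Aqp9 fell 1.48-fold and 1.45-fold (adjusted p = 0.000774, 0.0271, 0.00814 and 0.00319). The Aqp7 probe set was dim, with all group means below the median of all probe sets (3.41). Aqp7 averaged 2.396 fed and 2.543 fasted in WT, and 2.885 and 2.324 in Mcl1(L-/-) livers. The fasted Mcl1(L-/-) mean was thus close to the fed WT mean, and the fed Mcl1(L-/-) mean was the highest. In fasted mice Agpat5 was higher and Agpat1 lower in Mcl1(L-/-) than in WT livers (log2 0.52 and -0.53, adjusted p = 0.0232 and 0.0128). The genotypes did not overlap for either, as for 3.9% of all probe sets. For Agpat1 they nearly touched, with a lowest WT value of 6.177 and a highest Mcl1(L-/-) value of 6.176. The count of 2 called genes was 1 without fasted WT replicate 3 or without fasted Mcl1(L-/-) replicate 1. The list had 0 called interactions, with Aqp7 (log2 -0.71, adjusted p = 0.147) and Mogat2 (log2 0.48, adjusted p = 0.508) furthest from 0. The median difference of this list was 0.10 in WT and 0.07 in Mcl1(L-/-) livers.

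Phosphatidic acid and diacylglycerol also feed phospholipid synthesis. Of 25 genes of that branch 2 rose in WT, and 4 rose and 3 fell in Mcl1(L-/-) livers (median difference -0.04 and 0.09). Chpt1, which makes phosphatidylcholine from diacylglycerol, rose 1.67-fold in WT and 1.76-fold in Mcl1(L-/-) livers (adjusted p = 0.000125 and 1.45e-05). Chkb, a choline kinase gene, rose 1.82-fold and 2.82-fold (adjusted p = 0.00174 and 9.9e-07). Plpp1, a lipid phosphate phosphatase unrelated to the lipins, rose 2.51-fold in Mcl1(L-/-) livers (adjusted p = 2.17e-05), and Chka 1.61-fold (adjusted p = 0.0468). Etnk1, an ethanolamine kinase gene, Selenoi, which makes phosphatidylethanolamine, and Pemt, which methylates it, fell 1.75-fold, 1.47-fold and 1.33-fold there (adjusted p = 0.0166, 0.0123 and 0.0124). In fasted mice 3 of the 25 were higher in Mcl1(L-/-) than in WT livers (Plpp2 1.98-fold, Chkb 1.58-fold and Plpp1 1.57-fold) and 1, Pemt, was 1.32-fold lower (adjusted p = 0.0198, 0.0252, 0.0488 and 0.0383). The count of 4 was 0 without fasted WT replicate 2 or fasted Mcl1(L-/-) replicate 5, 1 without fasted WT replicate 4 or fasted Mcl1(L-/-) replicate 1 or 2, and 2 without fasted WT replicate 3. Interactions were called for 0 of the 25, with Plpp1 (log2 1.03, adjusted p = 0.101) and Plpp2 (log2 0.78, adjusted p = 0.380) furthest from 0, and for 1 without fasted Mcl1(L-/-) replicate 3.

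**Figure D5:**
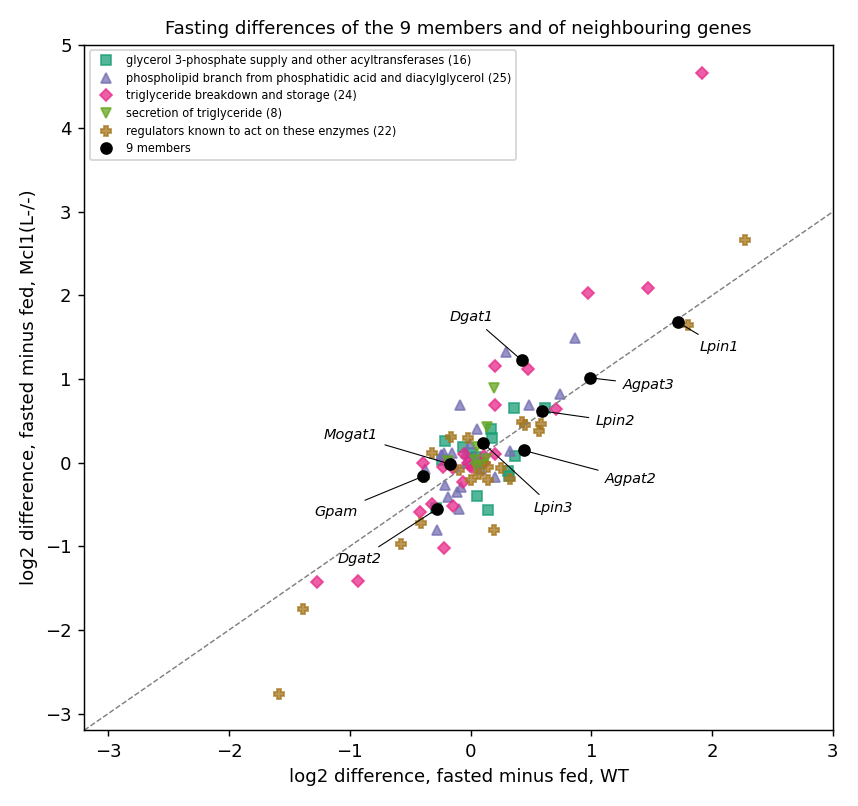
Log2 fasting difference in WT (horizontal axis) against that in Mcl1(L-/-) livers (vertical axis) for the 9 members (black, named) and for 95 genes of 5 neighbouring lists. The dashed line marks equal differences. Lpin1, Lpin2 and Agpat3 lie near the line, and Dgat1 lies above it.

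Of 24 genes of triglyceride breakdown and storage, 3 rose and 2 fell with fasting in WT, and 6 rose and 4 fell in Mcl1(L-/-) livers (median difference -0.01 and -0.00). Pnpla2, the triglyceride lipase ATGL, rose 1.97-fold in WT and 4.08-fold in Mcl1(L-/-) livers (adjusted p = 0.000244 and 4.15e-09), and the droplet coat gene Plin5 rose 2.78-fold and 4.24-fold (adjusted p = 0.000112 and 4.62e-07). Cidec, of lipid droplet fusion, rose 3.78-fold and 25.3-fold (adjusted p = 0.000883 and 2.47e-09). Its fed means, 2.99 in WT and 3.04 in Mcl1(L-/-) livers, were dim and lay below the median of all probe sets (3.41). The fasted means were 4.91 and 7.71. Cidec was the only gene of the 95 with a called interaction (log2 2.74, SE 0.50, adjusted p = 0.022). In this list the called interactions numbered 0 without fasted WT replicate 2, 3 without fasted Mcl1(L-/-) replicate 3 and 2 without fasted Mcl1(L-/-) replicate 4. The carboxylesterase genes Ces1f and Ces2a fell in both genotypes, by 2.42-fold and 1.91-fold in WT and by 2.69-fold and 2.68-fold in Mcl1(L-/-) livers (adjusted p = 0.000275, 0.00394, 3e-05 and 1.78e-05), and Ces1g fell 2.03-fold in Mcl1(L-/-) livers (adjusted p = 0.000345). In fasted mice 4 of the 24 were higher in Mcl1(L-/-) than in WT livers, which were Cidec (6.95-fold), Plin2 (2.25-fold), Plin5 (1.79-fold) and Pnpla2 (1.73-fold), with adjusted p of 8.44e-05, 0.00277, 0.0304 and 0.00557. The 2 lower ones were Ces1g (1.78-fold) and Ces2a (1.75-fold), with adjusted p of 0.0112 and 0.0213. In the same comparison 3 of 10 Kupffer cell, 2 of 9 stellate, 1 of 9 myeloid and 1 of 9 adipocyte markers were higher, and their part in these counts was not tested. Of 8 genes of triglyceride secretion 0 were called for fasting in WT, and 2 rose in Mcl1(L-/-) livers (median difference 0.08 and 0.04). These were Tm6sf2 (1.86-fold, adjusted p = 0.000585) and Mttp, the microsomal transfer protein that loads lipoproteins (1.34-fold, adjusted p = 0.0072). In WT the differences furthest from 0 were those of Tm6sf2 (log2 0.20, adjusted p = 0.642) and Arfgap1 (log2 -0.18, adjusted p = 0.560). For the deletion in fasted mice 0 of the 8 were called, with Arfgap1 at 0.46 and Mttp at 0.33 (adjusted p = 0.052 and 0.0795), and 2 were called without fasted Mcl1(L-/-) replicate 4 and 1 without fed WT replicate 2 or 4 or fasted Mcl1(L-/-) replicate 3. Their interactions furthest from 0 were Tm6sf2 (log2 0.70) and Mttp (log2 0.29), with adjusted p of 0.239 and 0.491.

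Among 22 regulators known to act on these enzymes 4 rose and 3 fell with fasting in WT, and 5 rose and 5 fell in Mcl1(L-/-) livers (median difference 0.10 and -0.07). The list held 24 genes, but Srebf1 and Nr1h2 had no probe set under these symbols and were not measured here. Ppargc1a, which encodes the coactivator PGC-1α, rose 3.48-fold in WT and 3.12-fold in Mcl1(L-/-) livers (adjusted p = 4e-05 and 5.01e-05). Mlxipl, the gene of the carbohydrate-responsive factor ChREBP, fell 2.62-fold and 3.37-fold (adjusted p = 1.02e-06 and 1.58e-08). Insig2 rose 4.84-fold and 6.35-fold and Insig1 fell 3.01-fold and 6.82-fold, both anchors of the sterol-sensing machinery (adjusted p = 7.15e-07, 3.28e-08, 8.02e-05 and 1.46e-08). Crtc2, a CREB coactivator gene, rose in both (log2 0.58 and 0.46), and Cebpa fell in both (log2 -0.58 and -0.97, adjusted p = 0.00472, 0.0138, 0.00885 and 1.87e-05). Hnf4a, a hepatocyte nuclear receptor gene that also stood among the hepatocyte markers, rose 1.40-fold in Mcl1(L-/-) livers (adjusted p = 0.0122), where fed and fasted livers overlapped. In WT its difference was 1.34-fold (log2 0.42, adjusted p = 0.0501), just outside the threshold, and the groups did not overlap. Ppara, the fatty acid receptor gene, fell 1.65-fold in Mcl1(L-/-) livers (adjusted p = 0.0283), and Nr3c1, the glucocorticoid receptor gene, had differences of -0.38 and -0.17 (adjusted p = 0.135 and 0.552). In fasted mice Insig2 was higher and Srebf2, Insig1 and Cebpa were lower in Mcl1(L-/-) than in WT livers (log2 0.96, -0.62, -1.01 and -0.59, adjusted p = 0.0215, 0.0203, 0.015 and 0.0152). This count of 4 was 2 without fasted Mcl1(L-/-) replicate 1, 2 or 5. Interactions were called for 0 regulators, with Insig1 (log2 -1.18, adjusted p = 0.136) and Srebf2 (log2 -1.01, adjusted p = 0.0598) furthest from 0, and for 1 without fasted WT replicate 4 or fasted Mcl1(L-/-) replicate 3 or 4.

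In fed mice limma called 0 of the 95 genes for the deletion (11 had an unadjusted p under 0.05), and the differences furthest from 0 in each list had adjusted p of 0.409 or more. These were Aqp7 (log2 0.49) and Gpat3 (0.35), Pcyt1a (-0.42) and Plpp1 (-0.39), Ces1f (-0.40) and Ces1d (-0.33), Tm6sf2 (-0.41) and Arfgap1 (0.25), and Insig2 (0.57) and Cebpb (0.48). Over all 95, 15.8% were called for fasting in WT, 35.8% for fasting in Mcl1(L-/-) livers and 16.8% for the deletion in fasted mice, where the shares over all probe sets were 6.79%, 14.4% and 4.99%. Those shares include dim probe sets. A fit of only probe sets at or above the median signal called 1659, 3331 and 1344, against 1507, 3208 and 1109 over all. The share called was thus higher among bright probe sets, and the 95 genes were not matched for signal.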

How the data were processed

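Liver RNA of 20 mice in 4 groups of 5 was labelled with the GeneChip WT PLUS kit and hybridised to 1 array each, per the labels' protocols. The authors deposited 1 table of log2 signals for 22206 probe sets, for which the submitters' processing notes name RMA and Partek 7.0. The log base is taken from the value range (1.34 to 12.56) and RMA. No source used here states the RMA settings. Standard RMA sets all arrays to 1 distribution, which hides shifts shared by most transcripts.

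limma 3.58.1 (R 4.3.3) fitted 1 mean per group to all 20 arrays, with eBayes and Benjamini-Hochberg adjustment over all probe sets. It assumes 1 spread for the 4 groups. The fit was tested on simulated data. Gene names came from the platform annotation. For lists, the probe set with the highest mean stood for a gene. Figures used matplotlib 3.10.9. Alternatives were 2 rescalings, trend and robust moderation, no moderation, array weights, bright probe sets only, only the compared groups, a replicate block, a null bound of 0.2 on the log2 scale and each array left out.

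The members and lists were chosen with earlier results of these data known. Named were the 9 members, Mcl1, called genes of 5 pathway lists (at least the 3 largest rises and falls per contrast, or the 2 largest differences where none was called), markers of other cell types, and the 3 genes most correlated with each called member. Same-numbered replicates did not deviate together (median correlation -0.022 over 30 pairs, of which 1 exceeded 0.1), so the numbers were not used as pairs. The labels call the mice biological replicates and name no batch.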

Additional observations from a re-analysis of the deposited data

How the results depend on the processing

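Over 45 differences (9 members in 5 comparisons) and their alternatives, 1262 of 1286 values stayed on the same side of the threshold, 13 lost a call, 11 gained one and 0 called values changed sign. Calls for fasting in WT numbered 4 of 9, and 2 against a null bound of 0.2. They ranged from 2 to 5 when single arrays were left out, with 2 without fed WT replicate 3, fed WT replicate 5 or fasted WT replicate 3. In Mcl1(L-/-) livers 5 members were called with any array left out. For the deletion in fasted mice 0 were called, and 1 (Dgat2) after quantile normalisation, with trend and robust moderation and with bright probe sets only, and 0 to 2 when single arrays were left out. For the deletion in fed mice and the interaction 0 were called under every alternative run. A replicate block left these counts at 4, 5, 0, 0 and 0 and changed no call of a member. The cause of these changes was not tested. Over all probe sets, calls for the deletion in fasted mice numbered 1109, and 399 with only the groups compared, 700 without moderation, 162 against the null bound and 497 to 1707 with single arrays left out. Of the 1109, 738 were higher and 371 lower, against 561 and 459 after quantile normalisation and 880 and 272 after median centring, and no rescaling moved the median difference of all probe sets by over 0.0388. The null bound also cut the calls for fasting from 1507 to 587 in WT and from 3208 to 1551 in Mcl1(L-/-) livers. The called interactions numbered 30, and 20 with the replicate block, 3 without moderation, 7 against the null bound, 55 with array weights, 52 with bright probe sets only and 9 to 331 with single arrays left out, the 331 without fasted Mcl1(L-/-) replicate 3. For the deletion in fed mice 8 became 4 without moderation, 15 with trend and robust moderation, 26 with array weights and 7 to 16 with single arrays left out. Each member had 1 probe set, so no other probe set could be tried, and the interaction could not be fitted on only the groups compared. Lpin3 and Mogat1 lay below the median signal and were absent from the bright probe sets. Their low signal and 5 arrays a group limit what could be detected.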
